A study of Mus musculus with 4 samples.

Results

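Ribosome-protected signal of 29 sterol and lipid synthesis genes was examined in primary myoblasts of the mouse, cultured precursors of muscle fibres obtained by enzymatic digestion of hind-limb muscle. The genes were chosen by name as the enzymes that build cholesterol and fatty acids and the proteins that regulate them, and all 29 were found among the 55573 genes of the table. There were 2 wild-type (WT) libraries and 2 that carry the label eIF5A-KO, for loss of the gene Eif5a. Its product eIF5A is a translation factor whose activity depends on hypusine, a modified lysine that cells form with spermidine. The study asked whether loss of eIF5A acts on the translation of all mRNAs or of some of them. Both groups came from muscle of mice 3 weeks old and were grown in DMEM with fetal bovine serum and FGF until day 2 of proliferation, and cycloheximide was added before lysis to hold ribosomes on the mRNA. The knockout mice were Pax7 CreERT2/+; eIF5A f/f, in which Cre is driven by Pax7 and needs tamoxifen, and were described as treated with tamoxifen. The study gives the genotype of the WT controls in its knockout experiments both as Pax7 CreERT2/+ and as Pax7+/+; eIF5A f/f, and which of these the WT libraries carried was not given. Cre driven by Pax7 acts in satellite cells and their descendants, so any other cell type in the culture keeps Eif5a. The number of animals behind each library was not given, so p-values measure the spread between these libraries, which may be technical.

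Cholesterol is built from acetyl-CoA through mevalonate, isoprenoids, squalene and a series of sterol rings, and fatty acids are built from citrate-derived acetyl-CoA by fatty acid synthase and then elongated and desaturated. Most of these genes are targets of the SREBP transcription factors, which the escort protein SCAP carries out of the endoplasmic reticulum when sterols are scarce and which INSIG proteins hold back when sterols are plentiful. Dividing cells use both pathways to make membrane, and serum in the medium supplies cholesterol from outside.

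Each library held between 642429 and 704006 reads, of which 217651 to 269143 in the WT libraries and 385091 to 460099 in the labelled-KO libraries fell on protein-coding genes. Eif5a itself was not lower in the labelled-KO libraries. Its signal was 34.9 and 65.2 RPKM (reads scaled by gene length and by the authors' library size) in the WT libraries and 60.3 and 59.4 RPKM in the labelled-KO libraries. Its log2 fold change was 0.32 (SE 0.48, limma adjusted p = 0.84), so these are called the labelled-KO libraries throughout. The study measured the knockout by RT-PCR and immunostaining in satellite cells of adult mice and reported that the line had been established. Sequence shared with other genes was examined for the members and not for Eif5a. The myoblast markers Myod1 and Des were read in all 4 libraries. Myod1 stood at 140 and 117 RPKM in WT against 48.6 and 79.8 RPKM in the labelled-KO libraries, and Des at 46.0 and 40.1 against 13.8 and 21.4 RPKM. Their log2 fold changes were -1.03 (SE 0.48, limma adjusted p = 0.676) and -1.27 (SE 0.43, limma adjusted p = 0.665). RNA abundance from these cells was not used here, and in ribosome-protected signal of a bulk culture a change in mRNA, in ribosomes per mRNA and in the number of cells of a type cannot be told apart.

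None of the sterol and lipid synthesis genes passed the test. Tested genes had to average 1 RPKM or more over the 4 libraries and were fitted with limma on log2(RPKM + 1) and adjusted over all 11363 tested genes, and 24 of the 29 members reached that level, on 15 to 395 reads each. No member had an adjusted p under 0.05 in either direction, where 0.0968% of all tested genes were called lower and 0.0088% higher in the labelled-KO libraries. At an unadjusted p under 0.05 there was 1 member (4.17%), against 7.32% of all tested genes. On the recovered whole reads, limma-voom called 0 of 25 members at an adjusted p under 0.05, where 0.425% of all genes it tested were called. At an unadjusted p under 0.05 it gave 2 members (8.0%), against 10.1% of all. The median log2 fold change of the tested members was -0.02, beside 0.00 over all tested genes, with 11 members above 0 and 13 below. Without WT library 1, 7 were above and 17 below, and without WT library 2, 14 were above and 10 below. Adjusted p-values of the members ran from 0.672 to 0.994. The 95% interval of a member's log2 fold change reached 1.09 to either side at the median, which is wider than a 2-fold difference, with 2 libraries a group.

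**Figure D1:**
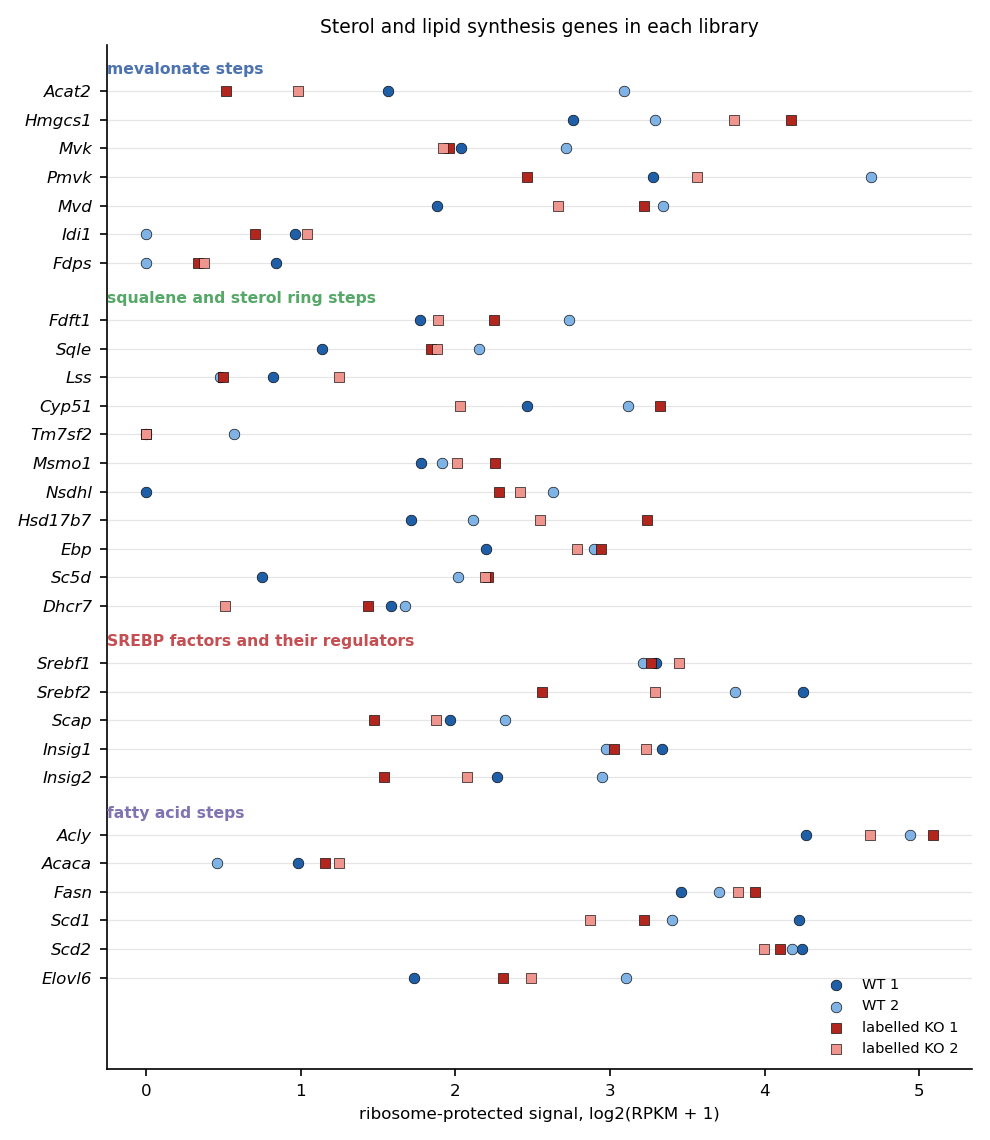
Signal of each of the 29 genes in each library on log2(RPKM + 1), with genes grouped by role, WT libraries as circles and labelled-KO libraries as squares. The libraries of the 2 groups interleave for 11 of the 24 tested members.

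The groups did not overlap for 13 of the 24 tested members. Both labelled-KO libraries lay below both WT libraries for 8 of them (33.3%; 20.3% of all tested genes), namely Acat2, Dhcr7, Insig2, Mvk, Scap, Scd1, Scd2 and Srebf2. Both lay above for 5 (20.8%; 20.1% of all tested genes), namely Fasn, Hmgcs1, Hsd17b7, Msmo1 and Sc5d. This split depended on the scaling: with the libraries set to the same sum of RPKM, which moved the median of all tested genes by 0.83 on the log2 scale, 1 member lay lower (4.17%; 2.84% of all tested genes) and 16 higher (66.7%; 48.2% of all tested genes). Over 2-fold with an unadjusted p under 0.05 there was 1 lower member, Srebf2, where 4.29% of all tested genes met this threshold, and no higher member, where 2.67% did. In the plot of fold changes, every interval but that of Srebf2 crosses 0.

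**Figure D2:**
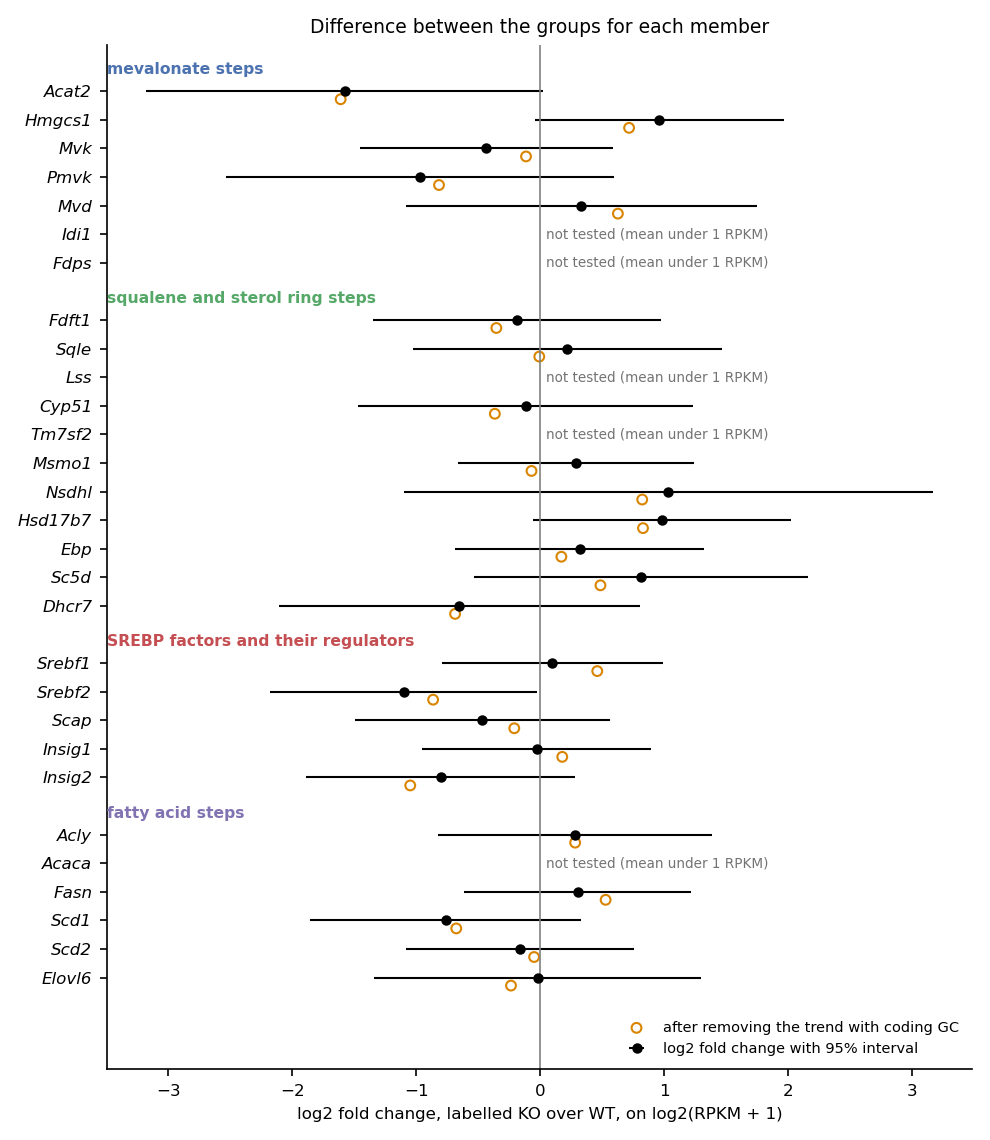
Log2 fold change of each tested member, labelled-KO libraries over WT, as black points with limma's 95% interval (n = 2 libraries a group). Open circles show the value after the trend of fold change with coding GC content was removed, and the interval of Srebf2 alone excludes 0, running from -2.18 to -0.02.

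The SREBP factors and their regulators held the only member over 2-fold at an unadjusted p under 0.05. Srebf2 (ENSMUSG00000022463, GRCm38 chr15:82147181-82205379), which codes for the SREBP that drives cholesterol genes, stood at 18.0 and 13.0 RPKM in the WT libraries and at 4.9 and 8.8 RPKM in the labelled-KO libraries. Both labelled-KO libraries were below both WT libraries, and their mean of 6.85 RPKM ± 2.74 (SD, n = 2) compared with 15.5 RPKM ± 3.54 (SD, n = 2) for WT. The log2 fold change was -1.10 (SE 0.44, limma adjusted p = 0.672). It met the threshold over 2-fold under 6 of the 16 alternatives and under none that left out a library, where it ran from -1.46 without the second labelled-KO library to -0.74 without the first. With the trend of fold change on coding GC content removed it was -0.86, under 2-fold. It rests on 122 reads in WT and 83 in the labelled-KO libraries, and the ratio of pooled reads was 0.43 with an exact 95% interval of 0.32 to 0.57, which covers counting error only.

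Srebf1 (chr11:60199089-60222581), whose SREBP drives fatty acid genes, stood at 8.8 and 8.3 RPKM in WT and at 8.6 and 9.9 RPKM in the labelled-KO libraries. The groups overlapped, and the log2 fold change was 0.10, with a 95% interval of -0.79 to 0.99. The difference between Srebf2 and Srebf1 was not tested.

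Among the proteins that hold or carry SREBPs, Insig2 stood at 3.8 and 6.7 RPKM in WT and at 1.9 and 3.2 RPKM in the labelled-KO libraries. Its log2 fold change was -0.80 (SE 0.44, adjusted p = 0.691), on 34 reads over the 4 libraries, of which the WT libraries held 19. It was -0.46 without WT library 2 and -0.54 without labelled-KO library 1, and its lowest value with a library left out was -1.14. Insig1, the INSIG that SREBPs themselves induce, stood at 9.1 and 6.9 RPKM in WT and at 7.1 and 8.4 RPKM in the labelled-KO libraries. Its groups overlapped and its log2 fold change was -0.03. Scap, the escort, stood at 2.9 and 4.0 RPKM against 1.8 and 2.7 RPKM, with a log2 fold change of -0.47 (SE 0.42, adjusted p = 0.731). In sum, 4 of the 5 genes of this role had a log2 fold change below 0, with Insig1 at only -0.03. This count was 3 with the coding GC trend removed, without WT library 1 and without labelled-KO library 1. It was 4 without WT library 2 and without labelled-KO library 2. The median was -0.47, and it was -0.27 without labelled-KO library 1, -0.29 without WT library 2 and -0.21 with the coding GC trend removed. The 5 genes summed to 42.7 and 38.9 RPKM in WT and to 24.3 and 33.0 RPKM in the labelled-KO libraries. Most of the difference between the sums came from Srebf2.

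The early steps to mevalonate and isoprenoids had fold changes on both sides of 0, 3 of the 5 tested below it. Hmgcs1 (ENSMUSG00000093930, chr13:119690379-119708260), the cytosolic HMG-CoA synthase, stood at 5.8 and 8.8 RPKM in WT and at 17.0 and 12.9 RPKM in the labelled-KO libraries. The groups did not overlap, and the log2 fold change was 0.96 (SE 0.41, limma adjusted p = 0.675), with an interval of -0.04 to 1.96. The pooled ratio was 2.13 (exact 95% interval 1.45 to 3.20) on 35 and 119 reads. Of the 28-base windows of its coding sequence, 32.3% also lie in Gm48342, an antisense gene, and whether the authors counted by strand was not given.

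Acat2 (chr17:12942890-12960747), the cytosolic acetyl-CoA acetyltransferase that joins acetyl-CoA units, stood at 2.0 and 7.5 RPKM in WT and at 0.4 and 1.0 RPKM in the labelled-KO libraries. The labelled-KO libraries held only 3 reads together against 12, a ratio of 0.16 with an exact 95% interval of 0.03 to 0.58. The log2 fold change was -1.58 (SE 0.65, limma adjusted p = 0.672), and leaving out WT library 2 made it -0.81 and leaving out WT library 1 made it -2.34. The value is uncertain for a further reason: 79.6% of its 28-base coding windows also occur in Acat3.

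Pmvk, the phosphomevalonate kinase, stood at 8.7 and 24.8 RPKM in WT and at 4.5 and 10.8 RPKM in the labelled-KO libraries. Its 2 WT libraries differed by 2.84-fold, more than the means of the groups, and the log2 fold change of -0.97 had an SE of 0.64 and ran from -1.67 without WT library 1 to -0.27 without WT library 2. Mvk, the mevalonate kinase, stood at 3.1 and 5.6 RPKM against 2.9 and 2.8 RPKM. Its groups did not overlap, and its log2 fold change was -0.44 (SE 0.41, limma adjusted p = 0.736). Mvd, the decarboxylase that makes isopentenyl diphosphate, stood at 2.7 and 9.1 RPKM against 8.3 and 5.3 RPKM, with overlapping groups. For the kinases and the decarboxylase, the means of the groups differed by less than the 2 WT libraries did. Idi1 and Fdps, which make dimethylallyl and farnesyl diphosphate, were below the tested level with 7 and 4 reads in all, and WT library 2 held none of either.

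The direction of the squalene and sterol ring genes rested on 1 library, and none passed the adjusted threshold. Of the 9 tested, 6 had a log2 fold change above 0 (66.7%; 50.0% of all tested genes), with a median of 0.29. Without WT library 1, 3 of the 9 were above 0 and the median was -0.28, and without WT library 2, 8 were above 0 and the median was 0.66. With the coding GC trend removed 4 were above 0 and the median was -0.0077. Hsd17b7 (ENSMUSG00000026675, chr1:169949535-169969241), a keto-reductase of the C4 demethylation complex, stood at 2.3 and 3.3 RPKM in WT and at 8.4 and 4.9 RPKM in the labelled-KO libraries. Its groups did not overlap, and its log2 fold change was 0.98 (SE 0.42, limma adjusted p = 0.675), on 15 and 59 reads. Sc5d, the lathosterol oxidase, stood at 0.7 and 3.1 RPKM against 3.6 and 3.6 RPKM, and its log2 fold change of 0.82 was 0.18 without WT library 1.

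Nsdhl, the decarboxylating dehydrogenase of the same C4 complex, showed the same dependence. It had no read in WT library 1, 5.2 RPKM in WT library 2, and 3.9 and 4.3 RPKM in the labelled-KO libraries. Its log2 fold change of 1.03 had an SE of 0.87 and became -0.28 without WT library 1. Msmo1, the C4 methylsterol oxidase, stood at 2.4 and 2.8 RPKM against 3.8 and 3.0 RPKM, a log2 fold change of 0.29, and Ebp, the sterol isomerase, at 3.6 and 6.4 RPKM against 6.7 and 5.9 RPKM. The 3 members of the C4 demethylation complex thus had fold changes above 0, none of them past the test, and Msmo1 was at -0.070 with the coding GC trend removed.

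Dhcr7, which makes the last reduction to cholesterol, stood at 2.0 and 2.2 RPKM in WT and at 1.7 and 0.4 RPKM in the labelled-KO libraries, on 24 reads in all. Cyp51, the lanosterol demethylase, ranged from 3.1 to 9.0 RPKM within the labelled-KO libraries alone, so its log2 fold change of -0.12 had a 95% interval of -1.47 to 1.24. Squalene synthase (Fdft1) and squalene epoxidase (Sqle), which make and oxidise squalene, had log2 fold changes of -0.19 and 0.22, with overlapping groups. Lss, the lanosterol synthase, and Tm7sf2, a sterol reductase, were below the level tested on log2(RPKM + 1). Lss held 23 reads in all, and limma-voom gave it a log2 fold change of 0.19 (adjusted p = 0.960). Tm7sf2 held 1 read, in WT library 2, which is under the floor of 3 reads and gives no fold.

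The fatty acid genes held the member with the most reads, Acly. Of the 5 tested, 3 had a log2 fold change below 0, among them Elovl6 at only -0.02. This count was 2 with a pseudocount of 0.1, with quantile normalization, without WT library 2 and without labelled-KO library 1. It was 4 without WT library 1. Limma-voom also tested Acaca and had 4 of 6 above 0. Acly, the enzyme that splits citrate into acetyl-CoA, stood at 18.2 and 29.8 RPKM in WT and at 33.0 and 24.6 RPKM in the labelled-KO libraries, on 395 reads. Fasn, fatty acid synthase, stood at 10.0 and 12.02 RPKM against 14.3 and 13.2 RPKM, and its groups did not overlap although the log2 fold change was 0.30 (SE 0.37, adjusted p = 0.799). The 95% intervals were -0.82 to 1.38 for Acly and -0.61 to 1.22 for Fasn.

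The stearoyl-CoA desaturases Scd1 and Scd2, which both lie on chromosome 19, put a double bond into saturated fatty acids. Scd1 stood at 17.6 and 9.5 RPKM in WT and at 8.3 and 6.3 RPKM in the labelled-KO libraries, a log2 fold change of -0.76 (SE 0.44, adjusted p = 0.697) that became -0.35 when WT library 1 was left out and -1.17 when WT library 2 was. Scd2 stood at 17.9 and 17.1 RPKM against 16.1 and 15.0 RPKM, a log2 fold change of -0.16 with an interval of -1.08 to 0.76. Both genes were lower in both labelled-KO libraries than in either WT library, in Scd2 by a narrow margin. Elovl6, the elongase of palmitate, ranged from 2.3 to 7.6 RPKM within WT, and its log2 fold change was -0.02. Acaca, the acetyl-CoA carboxylase, had a mean of 0.99 RPKM on 51 reads and missed the tested level; 77.8% of its 28-base coding windows occur in another gene, most of them in Gm5182.

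Levels were compared between members per kilobase of coding sequence, since ribosomes protect mainly that part and the table divides by the whole gene length. On this scale the mean over the 4 libraries ran from 84.1 for Scd2 to 0.42 for Tm7sf2. The order began Scd2, Scd1 (48.1), Acly (42.2), Elovl6 (37.1), Pmvk (36.3), Hmgcs1 (32.8) and Insig1 (31.4), and the first 5 held 44.4% of the summed level of all 29. Scd2 was the highest member in each of the 4 libraries, whereas the spread of Scd1, Acly, Elovl6 and Pmvk between libraries was wider than the steps between them. Above Tm7sf2 at the low end stood Fdps (1.34), Acaca (2.40), Idi1 (2.72), Lss (3.62), Scap (5.51) and Acat2 (5.81), and 4 of these 6 share most of their coding sequence with other genes.

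Of the 29 members, 5 shared at least 50% of their 28-base coding windows with another gene, and 16 shared none. The shares were 98.4% for Fdps, 79.6% for Idi1, 79.6% for Acat2, 77.8% for Acaca and 52.8% for Fdft1, counted over all other genes together. The gene that shared most with each was Gm43738 (84.6% of the windows of Fdps), Gm13502, Acat3, Gm5182 and Gm6781. The level of 4 of these 5 was below 6 on the scale per coding kilobase, and Fdft1 was at 11.99. Elovl6 (49.0%), Scd1 (41.0%) and Scd2 (35.2%) shared less and had high levels. How reads that match several places were counted was not given, and the part of shared sequence in the low levels was not tested.

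**Figure D3:**
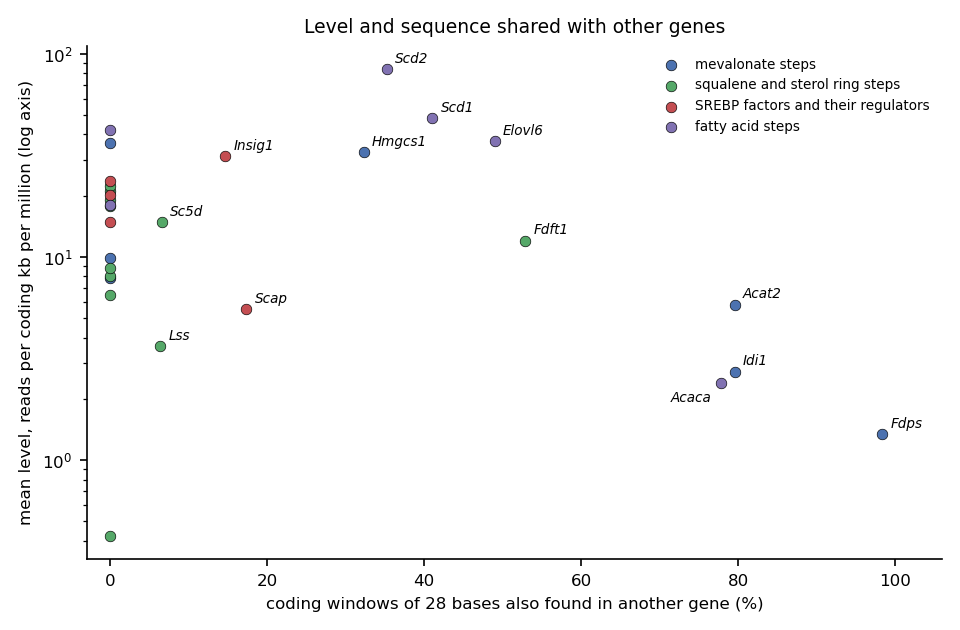
Mean level of each member over the 4 libraries per kilobase of coding sequence (log axis) against the percent of its 28-base coding windows that also occur in another gene. Fdps, Idi1, Acaca and Acat2, at 77.8% to 98.4%, lie at or below 5.81, and the members without shared windows spread over most of the range.

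The WT libraries differed from each other in these genes more than the labelled-KO libraries did. WT library 2 exceeded WT library 1 in 19 of the 24 tested members (79.2%), with a median log2 difference of 0.67, while this held for 48.9% of all tested genes. In the other group, the second library exceeded the first in 10 of 24. By role, WT library 1 had the lowest summed signal in the mevalonate steps (23.96 RPKM, with 55.8 in WT library 2 and 34.1 and 34.2 in the labelled-KO libraries) and in the squalene and sterol ring steps (19.9 RPKM, with 40.7, 43.8 and 31.9 RPKM). The summed signal of the fatty acid steps was 67.1 and 76.4 RPKM in WT and 77.0 and 65.1 RPKM in the labelled-KO libraries, with overlapping groups. Leaving out WT library 1 moved the median of the members to -0.32 and leaving out WT library 2 moved it to 0.25. All members together took 0.185% and 0.218% of the reads on protein-coding genes in WT and 0.185% and 0.181% in the labelled-KO libraries.

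Proliferation genes were also lower in WT library 1 than in WT library 2, in 11 of 12, with Mki67 the other way. The 12 genes of that list summed to 69.9 and 137 RPKM in WT and to 182 and 165 RPKM in the labelled-KO libraries, and all 12 had a log2 fold change above 0 (10 without WT library 1), with none past the adjusted threshold and 2 higher at an unadjusted p under 0.05, as were 2.86% of all tested genes. For 9 of the 12 (75%; 20.1% of all tested genes) both labelled-KO libraries lay above both WT libraries. Of its defining genes, Mki67 stood at 9.2 and 4.2 against 11.4 and 3.8 RPKM and Top2a at 5.9 and 7.5 against 19.9 and 9.3 RPKM. The 7 myoblast markers summed to 316 and 188 RPKM in WT and to 68.7 and 112 RPKM in the labelled-KO libraries. All 7 had a log2 fold change below 0, and none passed the adjusted threshold. At an unadjusted p under 0.05 there were 5, beside 4.46% of all tested genes that were lower at that threshold. The median log2 fold change of the 7 was -1.59, and -1.22 with the coding GC trend removed. For 6 of the 7 (85.7%; 20.3% of all tested genes) both labelled-KO libraries lay below both WT libraries, a count that was 2 with the same sum of RPKM, where 1 marker also had a log2 fold change above 0. Neither list was tested for a part in the values of the sterol genes.

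**Figure D4:**
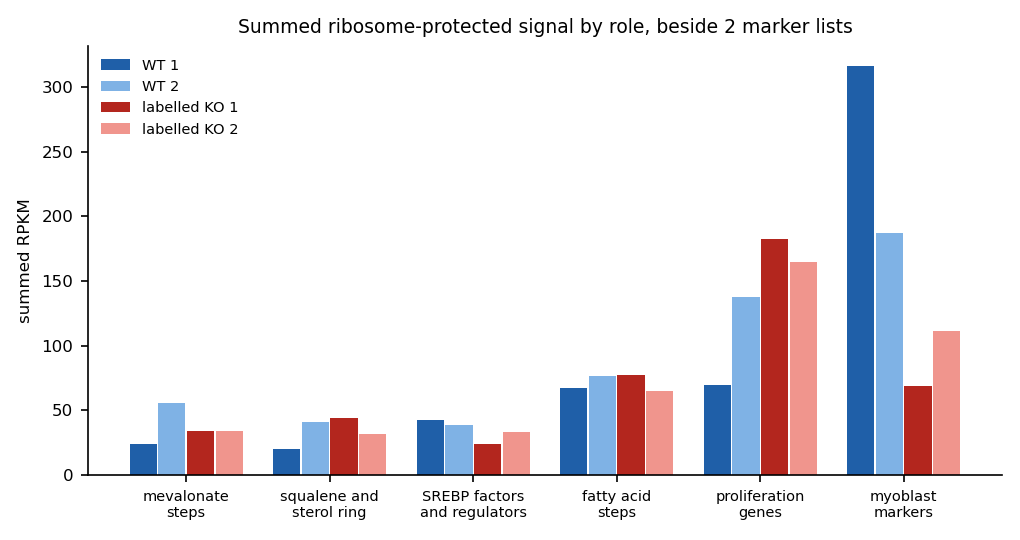
Summed RPKM of the members of each role in each library, beside the proliferation genes and the myoblast markers. WT library 1 is lowest in the mevalonate steps (23.96), the squalene and sterol ring steps (19.9) and the proliferation genes (69.9), and highest in the SREBP group (42.7) and the myoblast markers (316).

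Other cell types that make much lipid could be present in a muscle digest. The 10 adipocyte markers summed to 73.4 and 65.8 RPKM in WT and to 98.7 and 64.3 RPKM in the labelled-KO libraries, most of it Fabp4, which other cell types also express. Adipoq stood at 4.8 and 4.6 RPKM in WT and was listed at 0 in both labelled-KO libraries, on 7 reads in all, Plin1 ranged from 0.8 to 2.1 RPKM, and Lep was at 0 in all 4. The 10 fibroblast markers summed to 462 and 270 against 775 and 347 RPKM, with Col1a1 at 29.1 to 55.8 RPKM, Pdgfra at 31.6 to 88.2 RPKM and Tcf21 at 0. The 6 endothelial markers summed to 117 and 107 against 150 and 124 RPKM, with Pecam1 at 21.1 to 22.5 RPKM, and the 6 immune markers to 45.7 and 60.6 against 56.9 and 49.5 RPKM, with Ptprc listed at 0 in WT library 2 and labelled-KO library 2. Of these 4 lists, 1 of 4 tested adipocyte genes was lower at an unadjusted p under 0.05, 1 of 8 fibroblast and 1 of 6 endothelial genes were higher, and 1 of 4 immune genes was lower and 1 higher, where 4.46% of all tested genes were lower and 2.86% higher. All 6 endothelial markers had a log2 fold change above 0, and for 5 of them (83.3%; 20.1% of all tested genes) both labelled-KO libraries lay above both WT libraries. The latter count was 3 with quantile normalization and 3 with the same sum of RPKM over protein-coding genes, where 5 of the 6 were above 0, as with the coding GC trend removed. Above 0 were also 6 of the 8 fibroblast genes (4 without labelled-KO library 1), 1 of the 4 adipocyte genes (3 without WT library 1 and 3 without labelled-KO library 2) and 2 of the 4 immune genes. Whether they contribute to the values of the members was not tested.

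Base composition ran alongside the fold changes. Across 9847 protein-coding genes, the log2 fold change was lower at higher GC content of the coding sequence, with a Spearman correlation of -0.36 as a description across genes, which are not independent replicates and share the same 4 libraries. Across the 24 members it was -0.29. The coding GC content of the members ran from 42.5% for Idi1 to 60.9% for Srebf1, with a median of 54.0%, beside 53.2% for all tested protein-coding genes. Srebf2, at 58.7% GC, lay below the median of genes of its composition, and Hmgcs1, at 47.1%, and Hsd17b7, at 51.3%, lay above it. With the trend removed, these 3 members had log2 fold changes of -0.86, 0.72 and 0.83. Fasn and Srebf1, which are GC-rich, moved from 0.30 to 0.53 and from 0.10 to 0.46, and Insig2, at 47.1%, from -0.80 to -1.05. Library composition and genotype cannot be told apart in this trend.

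**Figure D5:**
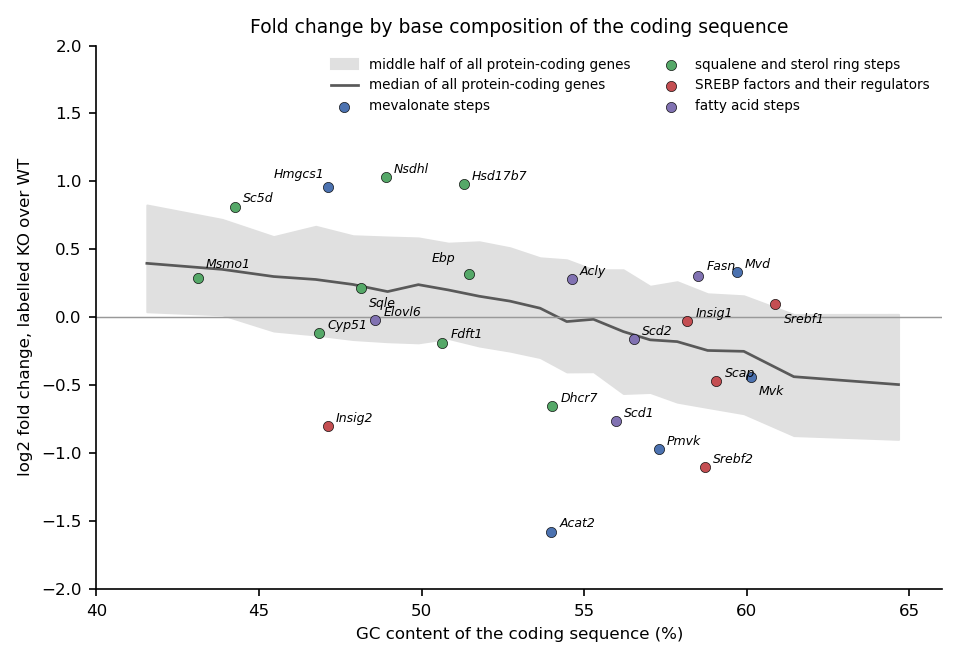
Log2 fold change of the 24 tested members against the GC content of their coding sequence, coloured by role, over the median (line) and the interquartile range (grey) of 9847 protein-coding genes in bins of equal size. The median of all genes runs from 0.40 in the bin of lowest GC content to -0.50 in the highest, and Acat2, Insig2 and Srebf2 lie furthest below it.

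eIF5A is known to help ribosomes through consecutive prolines, so the coding sequences of the members were searched for runs of 3 or more. Such a run was present in 6 of 29 members (20.7%), beside 20.1% of 21455 protein-coding genes. The longest run of each of these 6 members, or the first where lengths are equal, is shown with 6 codons to either side from GENCODE M21 (GRCm38), with the proline codons in capitals. They are shown because they are the stretches of these genes at which an effect on proline runs would be looked for.
Nsdhl, residues 96 to 98 of 362: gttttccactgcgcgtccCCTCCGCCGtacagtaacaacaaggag
Srebf1, residues 97 to 99 of 1134: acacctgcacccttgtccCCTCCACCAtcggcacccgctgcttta
Scap, residues 860 to 863 of 1276: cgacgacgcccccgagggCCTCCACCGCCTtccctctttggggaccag
Acly, residues 239 to 241 of 1101: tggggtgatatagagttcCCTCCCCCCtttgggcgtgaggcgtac
Scd1, residues 61 to 63 of 355: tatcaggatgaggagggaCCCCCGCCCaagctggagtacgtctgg
Scd2, residues 64 to 66 of 358: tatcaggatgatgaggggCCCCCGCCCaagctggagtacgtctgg

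The runs of Scd1 and Scd2 use the same codons, and the codons that follow them are the same in the 6 shown. Members with and without a run did not separate. The median log2 fold change was -0.03 for the 6 with a run and -0.02 for the 18 tested members without, and 3 of the 6 were below 0 against 10 of the 18. Scap, with a run of 4 and another of 3, had a log2 fold change of -0.47. Srebf1 and Acly, with 2 runs each, had 0.10 and 0.28, and Nsdhl had 1.03. The 4 members with the lowest values, Acat2, Srebf2, Pmvk and Insig2, had no run of 3. Over the 2538 tested protein-coding genes with a run, the median was -0.13, beside 0.12 over the 7309 without. Their coding sequences differed in GC content, with medians of 55.4% and 52.5%, and with the coding GC trend removed the medians of the fold changes were -0.088 and 0.046.

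Promoters from RefSeq (GRCm38.p6, 250 bases before to 50 after the start) were at hand for 24 of the 29 members. They were searched on both strands for TCACNCCAC, a form of the sterol regulatory element, for CCAAT, the box bound by NF-Y, and for CACGTG, the E-box that SREBP1 can also bind, and none of these contains another. TCACNCCAC occurred in 1 of the 24 genes (4.17%), Hmgcs1, and in 1.44% of all genes with a promoter. CCAAT occurred in 20 of 24 (83.3%), beside 41.1% of all genes and 42.3% of the 7848 tested protein-coding genes with a promoter. CACGTG occurred in 5 of 24 (20.8%), beside 8.09% and 12.2%. The stretches that follow are from the 3 members with the lowest unadjusted p that had a match, with the match in capitals, and positions count from the annotated start. Not every match is shown. CCAAT also lies at -237 to -233, -45 to -41 and 10 to 14 in Hmgcs1, and at -165 to -161 and -12 to -8 in Hsd17b7. ATTGG is CCAAT read on the other strand.
Hmgcs1, -137 to -129, chr13:119690202-119690234, plus strand: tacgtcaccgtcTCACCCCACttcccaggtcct
Hmgcs1, -176 to -172, chr13:119690163-119690191, plus strand: cgccgtcccgccATTGGcaggcttgttct
Srebf2, -135 to -131, chr15:82147122-82147150, plus strand: cttcgcgcgccgATTGGctaatgcaagcc
Hsd17b7, -143 to -138, chr1:169969331-169969360, minus strand: ggacccttgtgtCACGTGgctccgcccctc
Hsd17b7, -73 to -69, chr1:169969262-169969290, minus strand: tgccgagtcgcgATTGGcgggcctaacgc

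A match is a description of the letters only, and the stretches were not compared with the values.

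The rest of the pathway was read from 58 further genes in 5 lists, of which 51 were tested. None had an adjusted p under 0.05 with limma, adjusted p-values running from 0.554 to 0.999, and 3 (5.88%) had an unadjusted p under 0.05, against 7.32% of all tested genes. Of the 51, 31 had a log2 fold change above 0, and the median was 0.13, which became 0.040 without WT library 1, 0.067 without WT library 2, 0.061 without labelled-KO library 1 and 0.017 with the coding GC trend removed. Mid1ip1, a cofactor that activates acetyl-CoA carboxylase, stood at 10.9 and 8.0 RPKM in WT and at 2.6 and 2.3 RPKM in the labelled-KO libraries. Its log2 fold change was -1.58 (SE 0.37, limma adjusted p = 0.554), on 31 reads. Hsd17b12, the keto-reductase of fatty acid elongation, stood at 11.7 and 21.2 RPKM against 44.4 and 59.2 RPKM, a log2 fold change of 1.64 (SE 0.47, limma adjusted p = 0.641). Elovl1, the elongase of very long chains, stood at 4.9 and 3.9 RPKM against 8.5 and 10.4 RPKM, a log2 fold change of 0.96 (SE 0.37, limma adjusted p = 0.672). All 3 belong to the list of other fatty acid and glycerolipid enzymes, of which 18 were tested, and their groups did not overlap.

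The remaining lists held no gene at an unadjusted p under 0.05. The 5 other sterol enzymes all had log2 fold changes above 0, with a median of 0.43, though without WT library 1 only 3 did, with a median of 0.21, and the highest level among them was that of Por, the reductase that passes electrons to Cyp51 and Sqle, at 34.2 and 40.1 RPKM in WT and 60.6 and 41.9 RPKM in the labelled-KO libraries. Of the 9 tested genes of the isoprenoid branches, 5 were above 0 (3 without labelled-KO library 1 and 3 with the coding GC trend removed), and Nus1, a subunit of the dolichol-making transferase, stood at 15.0 and 11.3 against 7.7 and 10.2 RPKM. Of the 8 genes of SREBP processing and turnover, 3 were above 0, with a median of -0.11 (5 and 0.17 without WT library 1, 5 and 0.12 without labelled-KO library 1, 2 and -0.22 without WT library 2, 1 and -0.28 without labelled-KO library 2), and Pgrmc1, a membrane haem protein, stood at 58.1 and 59.4 against 47.5 and 63.3 RPKM. Of the 11 tested genes of cholesterol uptake, transport and efflux, 7 were above 0 (4 without labelled-KO library 1 and 5 without WT library 2), and Npc2, which hands cholesterol out of the lysosome, stood at 20.1 and 22.6 against 24.3 and 22.3 RPKM. Acsl4, a ligase that activates polyunsaturated fatty acids, led the fatty acid list with 24.6 and 32.2 against 72.8 and 42.4 RPKM, a log2 fold change of 0.96 (SE 0.47, adjusted p = 0.676).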

How the data were processed

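Ribosome-protected fragments were sequenced from 4 libraries of primary myoblasts (2 WT, 2 eIF5A-KO; groups and replicate numbers from the sample titles). The titles name Polysome-Seq, while the extraction text describes RNase I digestion and gel isolation of protected fragments. The deposited table holds RPKM values that the authors made with TopHat2 (mm10, Ensembl annotation) and HTSeq after reads of poor quality or from rRNA and tRNA had been taken out. Strand and multi-mapping settings were not given in the sources used here. RPKM times gene length gave whole reads for 100% of values within a tolerance of 0.01. The authors' library sizes were 602863 (WT 1), 471136 (WT 2), 906990 (KO 1) and 807705 (KO 2), which differ from the read totals. Intervals on counts (exact, 95%) and the floor of 3 reads hold no error but that of counting.

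Genes averaging 1 RPKM or more were fitted with limma 3.58.1 in R 4.3.3 (eBayes, trend=TRUE) on log2(RPKM + 1), a scale that shrinks the differences of low genes, with Benjamini-Hochberg adjustment over all tested genes. The script was tested on simulated data. An exact permutation test of 2 against 2 libraries cannot go below p = 0.333. Alternatives were another pseudocount, filters, scalings, limma-voom on recovered reads, a replicate block, removal of the coding GC trend and leaving out each library. Of the table's identifiers 99.7% were in GENCODE M21, whose longest coding sequences gave GC content, proline runs and shared windows. All members are named; of the pathway lists, genes at an unadjusted p under 0.05 and the gene of highest level in each list; of the marker lists, the defining markers, except 1 list that is not reported here. The members, lists and tests were chosen with earlier results of these data known.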

Additional observations from a re-analysis of the deposited data

How the results depend on the processing

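No member passed an adjusted p under 0.05 under any of the 16 alternatives, where the lowest adjusted p was 0.211. The count over 2-fold with an unadjusted p under 0.05 was 2 lower with a pseudocount of 0.1, with the same sum of RPKM over protein-coding genes, with protein-coding genes alone (an alternative chosen after seeing the data) and with the coding GC trend removed, without and with the replicate block. It was 0 lower with the same sum of RPKM, quantile normalization or trend=FALSE, and 0 to 1 without a library. It was 4 higher with the same sum of RPKM, of which 3 were over 2-fold relative to the median of all genes and Sc5d (0.86) was not, 1 with limma-voom and 0 to 2 without a library. Members whose groups did not overlap numbered 3 lower and 2 higher at a minimum of 5 RPKM, where 12 members were tested (21.4% and 23.9% of all genes tested there), and 1 lower and 16 higher with the same sum of RPKM. They were 9 to 14 lower and 6 to 12 higher without a library (30.4% to 39.4% and 31.7% to 35.9% of all tested genes), where fewer libraries make separation easier by construction. The cause of the other shifts was not tested. The same sum over protein-coding genes moved the median of all genes to -0.11, and under the rescalings that median was subtracted from the log2 fold changes of single members and from their median, but not for the counts. The replicate numbers did not pair the libraries (the correlation between groups of the difference between replicates 1 and 2 was 0.057), and the replicate block changed no call at the adjusted threshold. Its count of lower members over 2-fold was again 1, but this was Acat2 in place of Srebf2, and with the GC trend removed the 2 were Acat2 and Insig2.

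The median log2 fold change of the members stayed between -0.32 and 0.25. Of 24 members, 13 kept their sign throughout. Without a library, log2 fold changes ran from -0.40 to 1.06 for Mvd, -0.67 to 0.30 for Fdft1, -0.29 to 0.73 for Sqle, -0.76 to 0.53 for Cyp51, -0.28 to 2.35 for Nsdhl, -0.030 to 0.66 for Ebp, -0.21 to 0.15 for Insig1, -0.059 to 0.62 for Acly and -0.70 to 0.67 for Elovl6. The low end of Mvd, Fdft1, Sqle, Nsdhl, Ebp, Acly and Elovl6 came without WT library 1. Without changing sign, Mvk moved to -0.098 when WT library 2 was left out and to -0.77 when WT library 1 was, Dhcr7 -0.19 without labelled-KO library 2 and -1.12 without the other, Msmo1 0.16 and Hsd17b7 0.64 without labelled-KO library 1, Fasn 0.18 without WT library 1 and Scap -0.27 without labelled-KO library 1. With the GC trend removed, without and with the replicate block, Sqle became -0.0077, Msmo1 -0.070 and Insig1 0.18. With the same sum of RPKM, Insig1 became 0.084, Scd2 0.024 and Elovl6 0.080, and Elovl6 was 0.018 with a pseudocount of 0.1, 0.0055 with quantile normalization and 0.064 with limma-voom. Tested members held 15 to 395 reads over the 4 libraries, and the share of depth in their intervals was not tested.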
